A study of Homo sapiens with 8 samples.

Results

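The nuclear genes of oxidative phosphorylation were followed in HCT116 cells, a human colon carcinoma line, after knockdown of TAF3 and treatment with doxorubicin. A probe was taken as a member when its single gene symbol began with NDUF, UQCR, ATP5 or COX4 to COX8, or was one of the SDH, CYC1 and CYCS genes, with pseudogenes left out. This gave 120 probes of 86 genes among the 48803 probes of the array. Of these, 78 genes with 105 probes were measured, among 16348 features tested in all. A feature is 1 gene, read by its brightest probe, or 1 probe without a single gene name.

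TAF3 belongs to TFIID, the complex that recognises core promoters for RNA polymerase II, and doxorubicin is an anthracycline that poisons topoisomerase II and damages DNA. Cells were transfected with siRNA against TAF3 or with a non-targeting siRNA, called control siRNA below. After 48 h they were exposed to 0.5 µM doxorubicin for 24 h or left untreated. The comparisons ask how these transcripts respond to the drug and whether TAF3 siRNA alters them before and after it. Each of the 4 groups had 2 arrays, named below by the replicate number of the labels: replicates 1 and 3 were untreated and replicates 2 and 4 received doxorubicin. All 4 groups are the same line and all were transfected, so no group stands for untransfected cells. The labels do not say whether replicates came from separate cultures. The p-values therefore reflect how far replicate arrays lay apart, a spread that could be technical.

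Oxidative phosphorylation couples the passage of electrons along 4 complexes of the inner mitochondrial membrane to the making of ATP. Complex I takes electrons from NADH and complex II from succinate, complex III passes them to cytochrome c, and complex IV hands them to oxygen. Protons pumped on the way flow back through complex V, the ATP synthase, whose c-ring turns in the membrane. Most subunits are encoded in the nucleus, and a few in mitochondrial DNA. No mitochondrially encoded subunit was named on the array, so the values below concern the nuclear transcripts.

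By role, the measured genes were 31 of 33 complex I subunits, 7 of 7 complex I assembly factors, 3 of 3 complex II subunits and 9 of 9 complex III subunits. They also included cytochrome c, 10 of 16 complex IV subunits, 16 of 16 complex V subunits and ATP5IF1, the inhibitor protein of complex V. Not measured were COX4I2, COX6A2, COX6B2, COX7A1, COX7B2, COX8C, NDUFA5 and NDUFB4, none of which had a probe detected on at least 2 arrays. Most of the COX genes in that list are isoforms known from muscle, lung or testis. Among the measured genes only NDUFB1 and NDUFS6 had arrays below the background threshold.

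Signals are given as log2 of the background-corrected, quantile-normalised intensity, and a change is a difference between group means on that scale. Levels of different probes are not compared. Changes were tested with limma on all 16348 features, and a gene was called when its p-value adjusted by Benjamini and Hochberg over all features was under 0.05. The standard error (SE) of a pairwise change had a median of 0.17 over the members, and the 95% interval a median half-width of 0.39.

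TAF3 itself lay near background. Its probe was above the threshold on both arrays of control siRNA with doxorubicin and on no other array, so the knockdown can be read only as a bound, at least 1.10-fold lower with TAF3 siRNA under doxorubicin (adjusted p = 0.167). CDKN1A, the p53 target that encodes p21, rose by 2.28 ± 0.21 (SE, n = 2 arrays a group) with doxorubicin under control siRNA and by 2.23 ± 0.21 under TAF3 siRNA (limma adjusted p = 0.00153 and 0.00421). Of 7 colon epithelial markers, 6 were detected on all 8 arrays and VIL1 on 1. Among 7 markers of other cell types, PTPRC, CD3E and COL3A1 were detected on 0 arrays, VWF on 4, and CD68, COL1A1 and PECAM1 on 8. Medians of the array signals were equal at 73.9 units, and background thresholds ran from 81.3 to 87.3 units. In bulk RNA of this kind, fewer cells of a type and less RNA per cell cannot be told apart.

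Most oxidative phosphorylation genes were not called in any comparison. Doxorubicin under control siRNA brought 9 of 78 calls, 1 higher and 8 lower, where 17.1% of all features were called, 9.08% higher and 8% lower. At an unadjusted p under 0.05 there were 26 members, against 31.6% of all features. Arrays did not overlap in 20 of 78 members higher and 31 lower, against 29.8% and 33.8% of all features. TAF3 siRNA under doxorubicin also brought 9 calls, 5 higher and 4 lower, where 13.8% of all features were called, 6.53% higher and 7.28% lower. Doxorubicin under TAF3 siRNA called 0 members, where 4.65% of all features were called by limma, 2.07% higher and 2.58% lower. At an unadjusted p under 0.05 there were 11 of 78 members, against 21% of all features. TAF3 siRNA in untreated cells called 0 members and 0% of all features. An unadjusted p under 0.05 was reached there by 9 of 78 members, against 12.1% of all features. In all 14 different genes were called, and 64 were called in neither comparison. The 2 comparisons that gave calls share the arrays of control siRNA with doxorubicin.

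**Figure D1:**
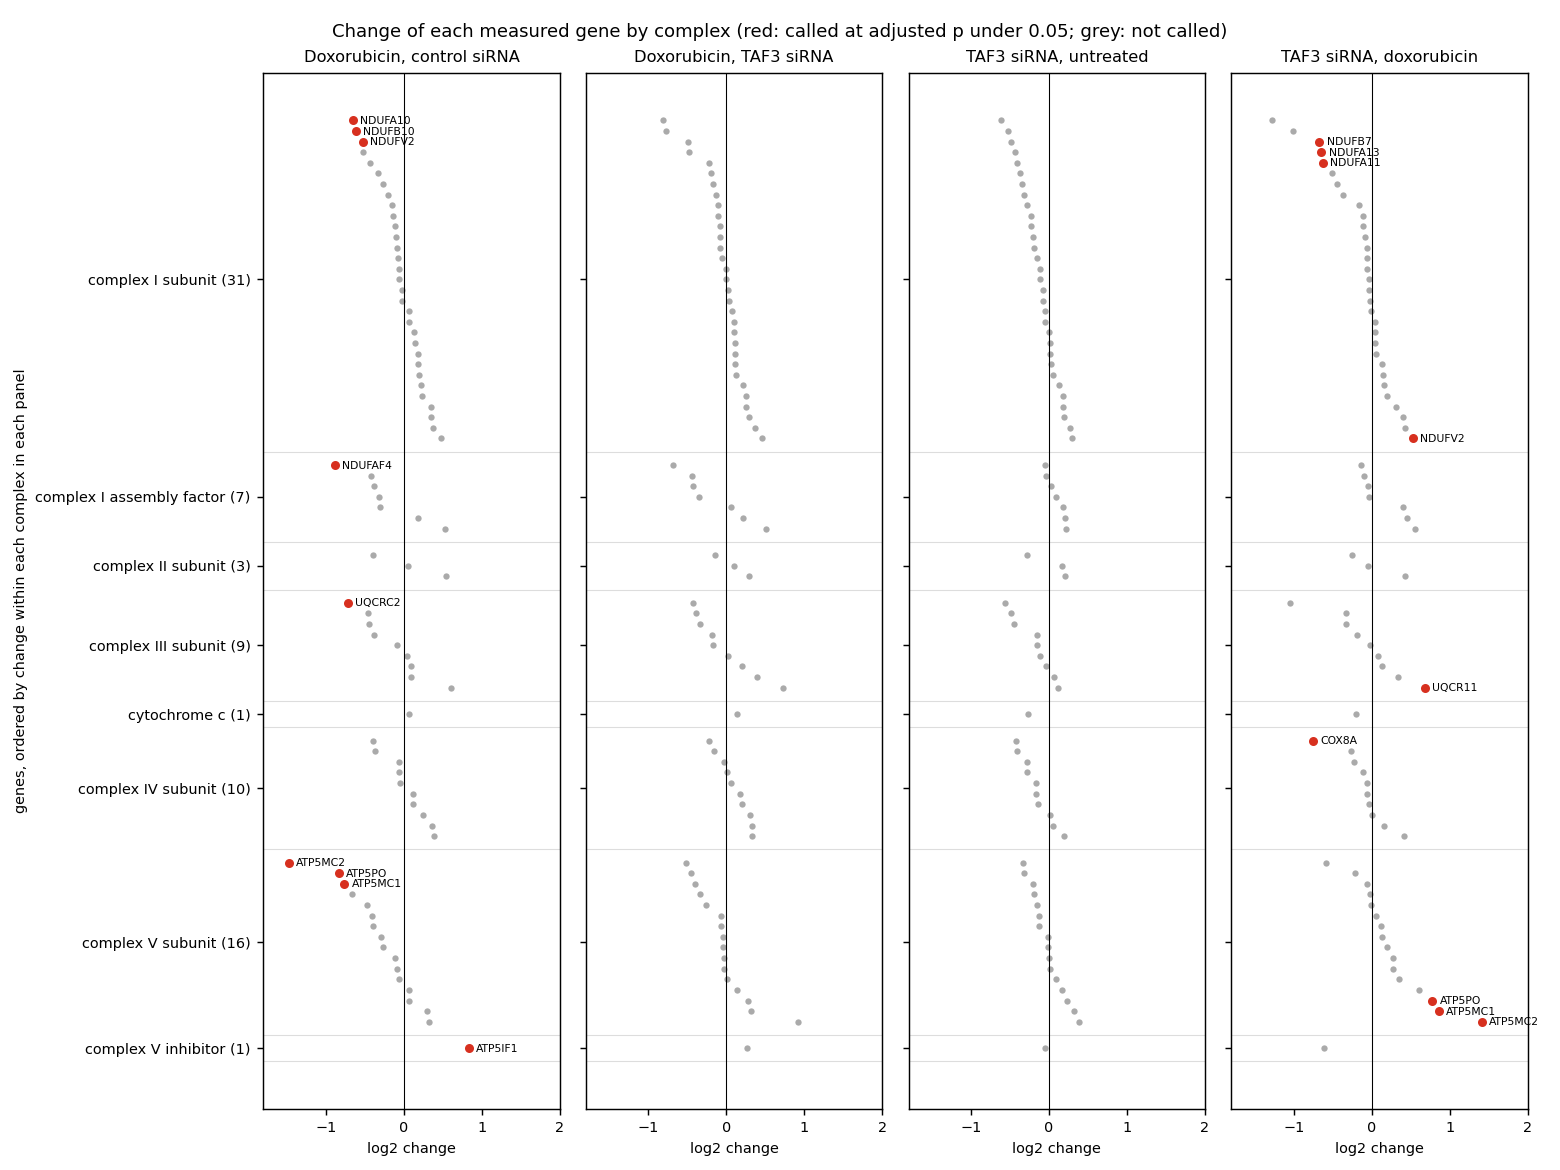
Log2 change of each of the 78 measured genes in 4 comparisons, ordered by size within each complex; red points are called at an adjusted p under 0.05 and grey points are not. Calls stand in the first and the last panel only, 9 in each, with ATP5MC2 at -1.47 in the first and 1.41 in the last.

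In the main fit the medians were near those of all features, while under other scalings, given at the end, some lay further apart. With doxorubicin under control siRNA the member median was -0.06 against -0.02 for all features, and the median absolute change 0.26 against 0.27. With TAF3 siRNA under doxorubicin the median was -0.03 against 0.03. In untreated cells TAF3 siRNA gave a median of -0.08 against 0.01, and doxorubicin under TAF3 siRNA gave -0.01 against 0.01. The 95% interval of the change lay within 2-fold either way for 66 of 78 members with doxorubicin under control siRNA, 71 under TAF3 siRNA, 75 for TAF3 siRNA untreated and 66 for TAF3 siRNA with doxorubicin. An uncalled gene is bounded by its interval and not shown to be unchanged.

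**Figure D2:**
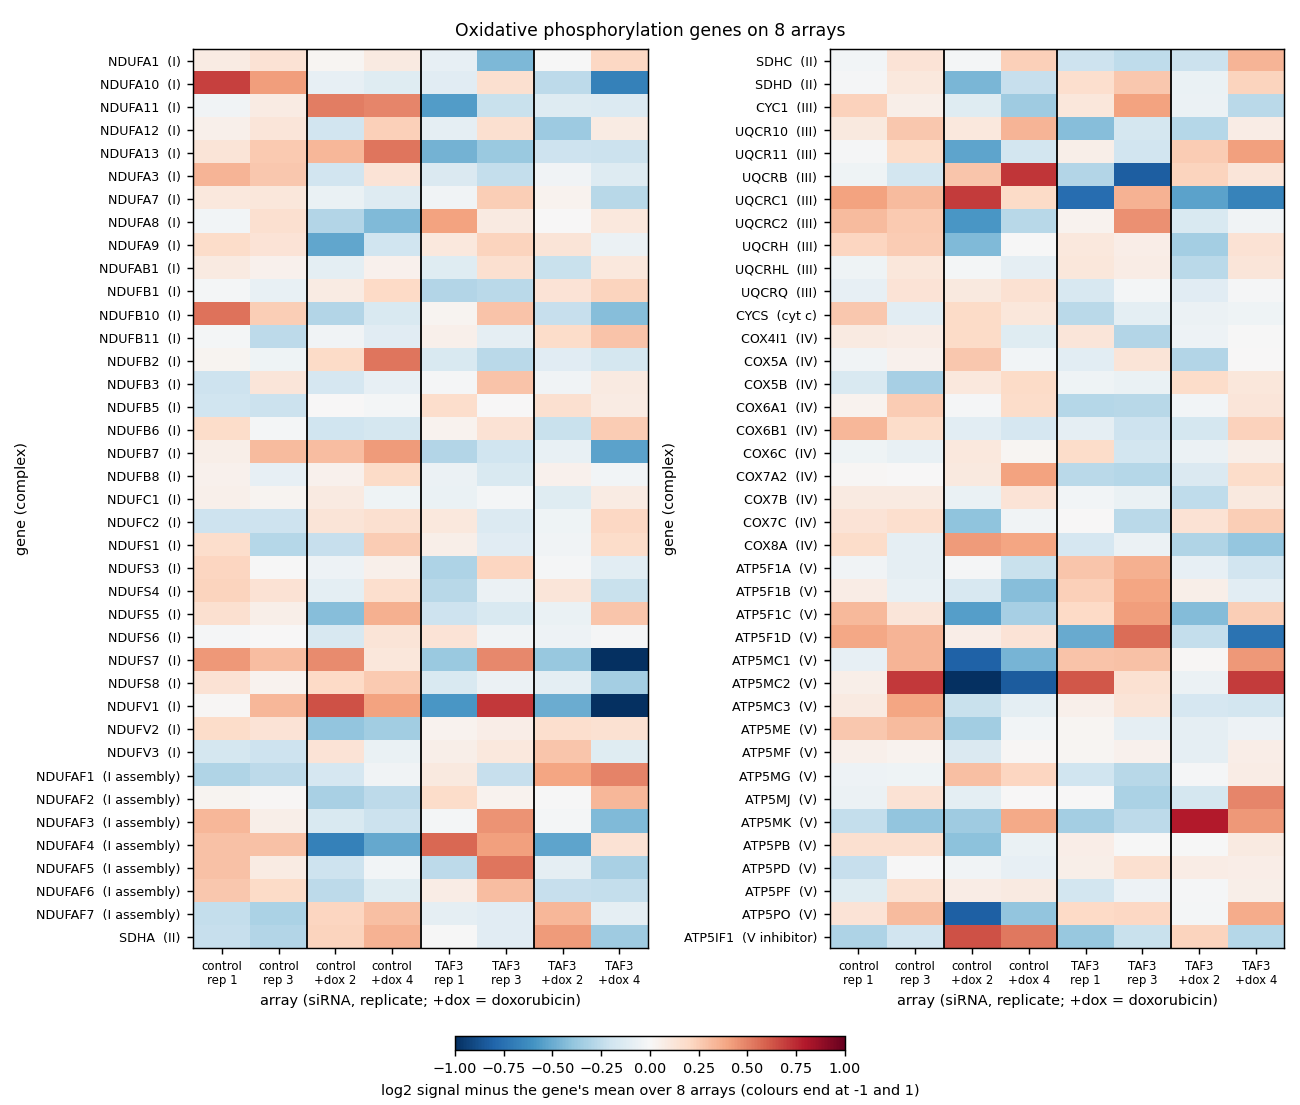
Each row is 1 measured gene with its complex in brackets, each column 1 of the 8 arrays, and colour is the log2 signal minus that gene's mean over the 8 arrays. Most rows are pale, ATP5MC2, ATP5MC1 and ATP5PO are blue on both arrays of control siRNA with doxorubicin, and NDUFV1 differs between the 2 untreated TAF3 siRNA arrays (10.40 and 11.70).

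ATP5MC1, ATP5MC2, ATP5PO and NDUFV2 were called in both comparisons that gave calls. Both use the arrays of control siRNA with doxorubicin, with opposite sign. A low value on those arrays therefore counts as a fall in the first comparison and a rise in the other. The share of all features called in both is not given, so the overlap is not read as particular to these genes. ATP5MC1 and ATP5MC2 encode the same mature subunit c of the ATP synthase ring behind different import peptides, ATP5PO encodes the stalk subunit also known as OSCP, and NDUFV2 an iron-sulfur subunit of the NADH-oxidising arm of complex I. Their promoters are shown because these 4 genes were called in both comparisons, from 250 bases before to 50 after the RefSeq start (GRCh38.p14). NRF1 was sought as GCATGCGC, ETS factors as CCGGAAG and YY1 as ATGGCGG. The TATA box was sought as TATAAA, and the CCAAT box by the letters of its name. Both strands were read, and matches are in capitals.
NDUFV2, chr18:9102449-9102748, plus strand: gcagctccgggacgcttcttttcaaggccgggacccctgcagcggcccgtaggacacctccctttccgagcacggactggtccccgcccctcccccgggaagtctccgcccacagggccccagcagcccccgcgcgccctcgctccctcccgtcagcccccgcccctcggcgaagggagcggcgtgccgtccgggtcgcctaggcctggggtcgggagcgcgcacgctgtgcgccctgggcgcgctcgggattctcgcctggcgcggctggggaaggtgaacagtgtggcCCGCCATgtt
ATP5MC1, chr17:48892537-48892836, plus strand: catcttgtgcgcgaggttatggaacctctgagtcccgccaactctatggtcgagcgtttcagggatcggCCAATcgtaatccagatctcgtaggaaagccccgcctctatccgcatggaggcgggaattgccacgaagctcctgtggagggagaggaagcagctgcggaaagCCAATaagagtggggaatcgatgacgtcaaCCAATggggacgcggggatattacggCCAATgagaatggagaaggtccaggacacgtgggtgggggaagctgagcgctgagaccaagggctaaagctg
ATP5MC2, chr12:53676034-53676333, minus strand: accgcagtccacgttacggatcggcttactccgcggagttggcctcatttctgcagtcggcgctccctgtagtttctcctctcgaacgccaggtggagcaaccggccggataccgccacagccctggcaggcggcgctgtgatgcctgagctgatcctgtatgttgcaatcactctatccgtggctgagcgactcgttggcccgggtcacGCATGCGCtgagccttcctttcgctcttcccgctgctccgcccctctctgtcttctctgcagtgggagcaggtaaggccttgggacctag
ATP5PO, chr21:33915755-33916054, minus strand: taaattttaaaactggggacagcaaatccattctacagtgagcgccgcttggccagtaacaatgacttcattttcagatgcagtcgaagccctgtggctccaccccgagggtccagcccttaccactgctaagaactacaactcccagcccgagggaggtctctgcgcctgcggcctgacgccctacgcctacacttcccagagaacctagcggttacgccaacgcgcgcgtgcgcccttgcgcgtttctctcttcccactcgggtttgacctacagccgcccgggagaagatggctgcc

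The 4 windows do not share a motif of this search. NDUFV2 holds 1 YY1 match, ATP5MC2 1 NRF1 match, ATP5MC1 4 CCAAT boxes, and ATP5PO none of the 5 motifs. Promoters were found for 65 of the 78 measured genes, among 27305 genes with a promoter of this length. NRF1, a factor long tied to respiratory chain genes, had its motif in 13 member promoters (20%) against 3.27% of all promoters. The YY1 motif stood in 18 (27.7%) against 5.72%, and the ETS motif in 20 (30.8%) against 10.7%. At least 1 of these 3 was present in 37 member promoters (56.9%) against 17.4% of all. The TATA box was found in 5 (7.69%) against 12%, and the CCAAT box in 21 (32.3%) against 35.7%. A match describes the letters in the window and is no evidence of binding, and the windows were not matched for base composition.

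The largest changes were those of ATP5MC2. Its log2 signal was 11.17 and 11.82 with control siRNA untreated, 9.76 and 10.28 with control siRNA and doxorubicin, 11.74 and 11.26 with TAF3 siRNA untreated, and 11.05 and 11.82 with TAF3 siRNA and doxorubicin. Both arrays of control siRNA with doxorubicin lay below the other 6, which overlapped among themselves. Doxorubicin changed it by -1.47 ± 0.32 (SE, n = 2 arrays a group) under control siRNA, a 2.77-fold fall (limma adjusted p = 0.0162). Under TAF3 siRNA the change was -0.07 (adjusted p = 0.934). With doxorubicin present it was higher by 1.41 ± 0.32 with TAF3 siRNA (adjusted p = 0.0249). The difference between the 2 doxorubicin responses was 1.41 and was not called (adjusted p = 0.207).

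ATP5MC1 was also lowest with control siRNA and doxorubicin. Its signal was 12.08 and 12.50 with control siRNA, 11.36 and 11.70 after doxorubicin, 12.45 and 12.46 with TAF3 siRNA, and 12.18 and 12.60 with TAF3 siRNA and doxorubicin. Both doxorubicin arrays with control siRNA lay below the other 6. The fall with doxorubicin was -0.76 ± 0.21 (limma adjusted p = 0.0400) and the rise with TAF3 siRNA under doxorubicin 0.86 ± 0.21 (adjusted p = 0.0332). ATP5MC3, the remaining subunit c gene, went from 8.60 and 8.90 to 8.28 and 8.41 with doxorubicin under control siRNA, a change of -0.41 that was not called (adjusted p = 0.115). Its change with TAF3 siRNA under doxorubicin was -0.02 (adjusted p = 0.963).

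ATP5PO read 13.002 and 13.19 with control siRNA, 12.06 and 12.47 after doxorubicin, 13.07 and 13.08 with TAF3 siRNA, and 12.85 and 13.24 with both. It fell by 0.83 ± 0.20 with doxorubicin under control siRNA (limma adjusted p = 0.0226) and was higher by 0.78 ± 0.20 with TAF3 siRNA under doxorubicin (adjusted p = 0.0354). Here too the arrays of control siRNA with doxorubicin lay apart and below the rest.

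NDUFV2 changed less, with close replicates. It read 12.93 and 12.88 with control siRNA, 12.35 and 12.40 after doxorubicin, 12.78 and 12.81 with TAF3 siRNA, and 12.92 and 12.90 with both. The fall was -0.53 ± 0.14 (limma adjusted p = 0.0322), and the rise with TAF3 siRNA under doxorubicin 0.53 ± 0.14 (adjusted p = 0.0383). Under TAF3 siRNA doxorubicin changed it by 0.11 (adjusted p = 0.704). The difference between the responses was 0.64 (adjusted p = 0.190).

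**Figure D3:**
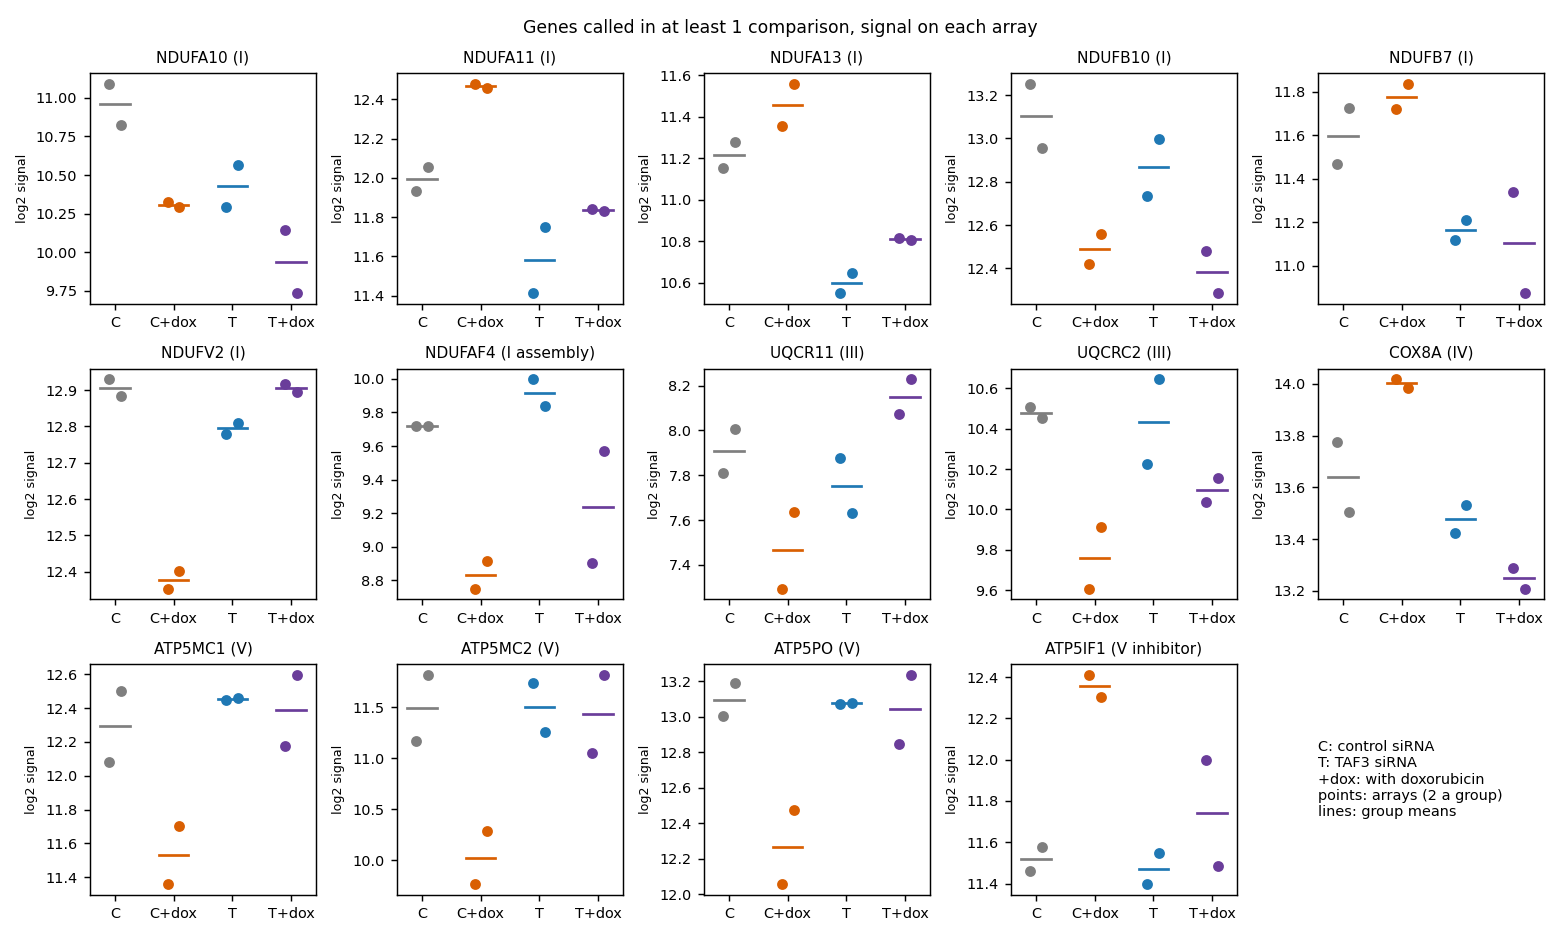
Log2 signal on each array for the 14 genes called in at least 1 comparison, with points for arrays, lines for the means of 2 arrays, and a vertical scale of its own in each panel. In ATP5MC2, ATP5MC1, ATP5PO, NDUFV2 and UQCRC2 the orange points (control siRNA with doxorubicin) lie below all others, and in ATP5IF1, COX8A, NDUFA11 and NDUFA13 they lie above all others.

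Among the other complex V genes, ATP5IF1 was the only member that doxorubicin raised to a call. This protein blocks ATP hydrolysis by complex V when the membrane potential fails. Its signal was 11.46 and 11.58 with control siRNA and 12.41 and 12.30 after doxorubicin, a rise of 0.84 ± 0.19 (limma adjusted p = 0.0193). With TAF3 siRNA it was 11.40 and 11.55 untreated and 11.996 and 11.48 with doxorubicin, so that the arrays overlapped (0.27, adjusted p = 0.473). The difference that TAF3 siRNA made under doxorubicin, -0.62, was not called (adjusted p = 0.0630).

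Of the 16 complex V subunits, 3 fell with doxorubicin under control siRNA and 0 rose, with a median of -0.27. Among all features 8% were called lower and 9.08% higher. The arrays of the 16 subunits did not overlap in 10 lower and 1 higher, where 33.8% of all features were lower without overlap and 29.8% higher. The catalytic core was not called: ATP5F1A, the alpha subunit, changed by -0.06 and ATP5F1B, the beta subunit, by -0.29 (adjusted p = 0.849 and 0.271). ATP5F1C, the gamma subunit that forms the rotor shaft, read 12.37 and 12.16 against 11.49 and 11.71, a change of -0.66 (adjusted p = 0.0798). With TAF3 siRNA under doxorubicin 3 subunits rose and 0 fell, with a median of 0.17, where 6.53% of all features were called higher and 7.28% lower. The dimmer probe of ATP5MG, which does not stand for that gene in the count, was called lower there (-0.66 ± 0.16, limma adjusted p = 0.0304). Over all 78 members, the arrays of that comparison did not overlap in 19 higher and 18 lower, where 33.1% and 29% of all features did not.

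Complex I held most of the remaining calls. NDUFA10, a supernumerary subunit, fell with doxorubicin under control siRNA from 11.09 and 10.83 to 10.32 and 10.29 (-0.65 ± 0.19, limma adjusted p = 0.0466). NDUFB10, of the membrane arm, fell from 13.25 and 12.96 to 12.42 and 12.56 (-0.62 ± 0.18, adjusted p = 0.0427). With TAF3 siRNA the same genes read 10.29 and 10.57 against 10.14 and 9.73, and 12.73 and 12.998 against 12.48 and 12.29. Those changes, -0.49 and -0.48, were not called (adjusted p = 0.185 and 0.156), though the arrays did not overlap. The 31 complex I subunits had a median of -0.06, with 3 called lower (9.68%) and 0 higher, against 8% and 9.08% of all features.

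NDUFAF4, an assembly factor of complex I, read 9.72 and 9.72 with control siRNA and 8.75 and 8.92 after doxorubicin. The fall of 0.89 ± 0.22 was called (limma adjusted p = 0.0248). With TAF3 siRNA it read 9.998 and 9.84 untreated and 8.90 and 9.57 with doxorubicin, a change of -0.68 that was not called (adjusted p = 0.111). The other 6 assembly factors in the rule were not called in any comparison. With doxorubicin under control siRNA 14.3% of the 7 were thus called, against 17.1% of all features. NDUFAF7, which methylates a complex I subunit, had the largest positive change among them with doxorubicin under control siRNA, 0.53 (adjusted p = 0.0644).

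With TAF3 siRNA under doxorubicin 3 of the 31 complex I subunits were called lower and 1 (NDUFV2, above) higher. The 4 calls were 12.9% of these subunits, against 13.8% of all features, 7.28% lower and 6.53% higher. NDUFA13, also known as GRIM-19, read 11.35 and 11.56 with control siRNA and 10.81 and 10.80 with TAF3 siRNA (-0.65 ± 0.15, limma adjusted p = 0.0269). NDUFA11, a membrane-arm subunit, read 12.48 and 12.46 against 11.84 and 11.83 (-0.63 ± 0.16, adjusted p = 0.0359). NDUFB7 read 11.72 and 11.84 against 11.34 and 10.87 (-0.67 ± 0.19, adjusted p = 0.0476). In untreated cells NDUFA13, NDUFA11 and NDUFB7 were lower without overlap but uncalled, with differences of -0.62, -0.41 and -0.43 (adjusted p = 0.269, 0.382 and 0.412).

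Some larger differences narrowly missed the threshold. NDUFV1, which binds NADH and FMN, read 11.63 and 11.39 with control siRNA and doxorubicin and 10.49 and 9.97 with TAF3 siRNA and doxorubicin (-1.28 ± 0.37, limma adjusted p = 0.0507). Its untreated TAF3 siRNA arrays stood at 10.40 and 11.70, a gap as wide as that change. UQCRC1, a core protein of complex III, differed by -1.05 (adjusted p = 0.0621) and read 10.29 and 11.40 on those untreated arrays. NDUFS7, an iron-sulfur subunit, differed by -1.01 (adjusted p = 0.0582). All 3 were called when only the 2 groups compared were fitted (limma adjusted p = 0.00855, 0.0136 and 0.0272). That fit leaves the untreated TAF3 siRNA arrays out. All 3 were also called in a limma fit with an intensity trend, which keeps those arrays (adjusted p = 0.0346, 0.0464 and 0.0439). None of them was called after median centring, on the deposited scale, or without the detection filter. Why they missed the threshold in the main fit was not tested. Members with replicates more than 0.5 apart numbered 1 with control siRNA, 4 with control siRNA and doxorubicin, 7 with TAF3 siRNA and 10 with both.

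Complex II, which also serves the citric acid cycle, had no call among its 3 measured subunits. Of all features 17.1% were called with doxorubicin under control siRNA and 13.8% with TAF3 siRNA under doxorubicin. SDHA, the flavoprotein, read 11.01 and 10.95 against 11.46 and 11.59 with doxorubicin under control siRNA (0.55, limma adjusted p = 0.144), and SDHD, a membrane anchor, 11.06 and 11.17 against 10.61 and 10.83 (-0.39, adjusted p = 0.143). SDHC changed by 0.05.

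Complex III had 1 call with doxorubicin under control siRNA, 1 with TAF3 siRNA under doxorubicin, and 0 elsewhere. Each was 11.1% of its 9 measured subunits, against 17.1% and 13.8% of all features. UQCRC2, the second core protein, fell from 10.51 and 10.45 to 9.61 and 9.91 with doxorubicin under control siRNA (-0.72 ± 0.19, limma adjusted p = 0.0309). UQCR11, a small subunit, read 7.29 and 7.64 with control siRNA and doxorubicin and 8.07 and 8.23 with TAF3 siRNA and doxorubicin (0.68 ± 0.18, adjusted p = 0.0384). UQCRB, which binds ubiquinone, had positive changes with doxorubicin under both siRNAs, 0.61 and 0.73 (adjusted p = 0.0862 and 0.0923). CYC1, the cytochrome c1 haem protein, changed by -0.38 and -0.42 (adjusted p = 0.170 and 0.207). UQCRH and UQCRHL are near-identical copies whose probes may share transcripts, and their values, -0.46 and -0.09 under control siRNA, are uncertain for that reason. CYCS, cytochrome c itself, changed by 0.07 and 0.13.

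Complex IV had 1 call, with TAF3 siRNA under doxorubicin, or 10% of its 10 measured subunits against 13.8% of all features. With doxorubicin under control siRNA it had 0 calls, against 17.1% of all features. COX8A, the ubiquitous isoform of subunit VIII, read 13.78 and 13.50 with control siRNA, 14.02 and 13.99 after doxorubicin, 13.42 and 13.53 with TAF3 siRNA and 13.29 and 13.21 with both. Under doxorubicin TAF3 siRNA changed it by -0.75 ± 0.16 (limma adjusted p = 0.0182). The other isoform genes measured were COX4I1, COX6A1, COX6B1, COX7A2 and COX7B. With doxorubicin under control siRNA they changed by -0.05, -0.06, -0.39, 0.25 and -0.06, and none was called. COX5A, COX5B, COX6C and COX7C were not called in any comparison.

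Under TAF3 siRNA no doxorubicin change was called. The smallest p-value was that of ATP5MK, a small subunit of the membrane part of complex V, which read 8.68 and 8.76 untreated and 9.81 and 9.45 with doxorubicin (0.91, limma adjusted p = 0.0664). It was followed by UQCRB, NDUFB1, NDUFAF4, NDUFAF1 and ATP5F1A. NDUFB1 lay below the background threshold on both untreated TAF3 siRNA arrays, so the difference of its means can be read only as a bound. It was at least 1.34-fold higher with doxorubicin and was not called (adjusted p = 0.103). NDUFAF1 changed by 0.51 (adjusted p = 0.111) and ATP5F1A by -0.46 (adjusted p = 0.123). Arrays did not overlap in 20 members higher and 11 lower, against 24.6% and 23.1% of all features.

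In untreated cells TAF3 siRNA left the smallest p-value to NDUFA13 (-0.62, above). NDUFA3, NDUFA10, COX6A1 and UQCR10 followed at -0.49, -0.53, -0.43 and -0.49, with limma adjusted p from 0.336 to 0.368. ATP5F1A was next at 0.38 (adjusted p = 0.379). Arrays did not overlap in 13 of 78 members higher and 25 lower, while 21.3% of all features were higher without overlap and 19.6% lower.

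The difference between siRNAs in the doxorubicin response was called for 0 members (8 at an unadjusted p under 0.05) and for 0.0367% of all features by limma, 0.0122% higher and 0.0245% lower. An unadjusted p under 0.05 was reached by 14.8% of all features. UQCR11 had the smallest p-value, 0.84 (adjusted p = 0.187), before NDUFV2, ATP5MC2, ATP5PO at 0.80 (adjusted p = 0.243), COX7C at 0.70 and COX8A at -0.59. The 95% half-width of this difference had a median of 0.55, so that a change called under 1 siRNA and not under the other is not shown to differ between them.

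The number of calls depended on single arrays. With 1 array left out its group holds a lone array, which is assumed to vary like the other groups. Leaving out an array alters the fit of every feature, so the counts below do not single out these genes. Leaving out replicate 2 or 4 of control siRNA with doxorubicin cut the calls with doxorubicin under control siRNA to 0 and 1, and leaving out replicate 1 or 3 of the untreated control to 1 and 0. Without replicate 2 or 4 of control siRNA with doxorubicin, or without replicate 4 of TAF3 siRNA with doxorubicin, 0 calls were left for TAF3 siRNA under doxorubicin. NDUFV2 ran from -0.55 to -0.50 and NDUFAF4 from -0.97 to -0.78 for doxorubicin under control siRNA across the alternatives tried on the brightest probe, and no array left out turned the direction of a called gene. ATP5MC2 ran from -1.798 to -1.15 in the same comparison, and from 1.03 to 1.79 for TAF3 siRNA under doxorubicin. Calls were less steady than directions, also in the alternatives that left out no single array. With doxorubicin under control siRNA NDUFA10 and ATP5MC1 stayed called in 2 and 3 of 6, and ATP5IF1, ATP5MC2, ATP5PO and NDUFAF4 in all 6. With TAF3 siRNA under doxorubicin NDUFB7 and NDUFV2 stayed called in 2 and 4 of 7, and ATP5MC2, NDUFA13 and COX8A in all 7. The remaining calls lay between.

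Several probes were kept for 24 genes and did not always move together. Dimmer probes were read from a second limma fit with every kept probe its own feature. ATP5MC1 had a second, dimmer probe that changed by 0.26 ± 0.21 with doxorubicin under control siRNA and by -0.13 ± 0.21 with TAF3 siRNA under doxorubicin, against -0.76 and 0.86 for the brighter one. The dimmer probe of ATP5MC2 kept the direction at -0.63 ± 0.21 (adjusted p = 0.0685) and 0.34 ± 0.21, and was detected on 4 arrays. NDUFAF4 was called with doxorubicin under control siRNA on both probes, at -0.89 and -1.02. For ATP5ME and ATP5F1D only the dimmer probe was called, at -1.48 ± 0.27 (adjusted p = 0.00839) and -0.90 ± 0.16 (adjusted p = 0.00677). The probes of ATP5F1D also took opposite directions with TAF3 siRNA under doxorubicin, at -0.59 and 0.56. The second probe of ATP5IF1 gave 0.47 ± 0.17 and -0.78 ± 0.17, the latter called (adjusted p = 0.0217).

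**Figure D4:**
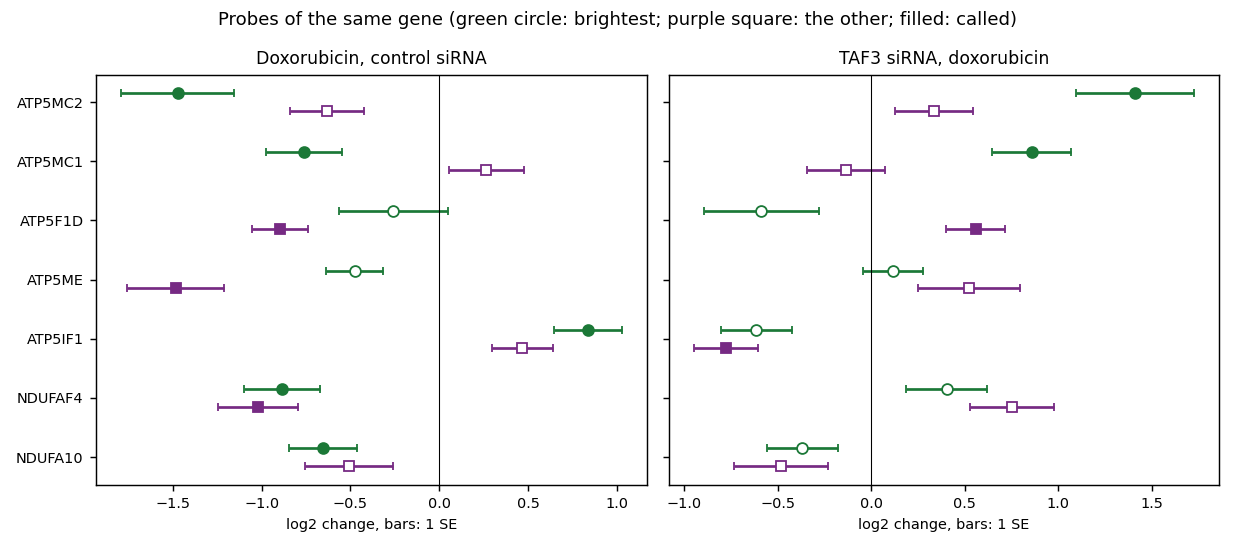
Log2 change with 1 SE for the probes of 7 genes, with doxorubicin under control siRNA on the left and TAF3 siRNA under doxorubicin on the right; circles are the brightest probe, squares the other, and filled symbols are called. The ATP5MC1 probes stand on opposite sides of 0, at -0.76 and 0.26 on the left and 0.86 and -0.13 on the right.

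Other nuclear genes of the same organelle give the setting. Of 23 genes of mitochondrial import and cristae, 9 fell and 1 rose with doxorubicin under control siRNA, with a median of -0.42, where 8% of all features fell and 9.08% rose. TOMM20, an import receptor, changed by -1.24 (limma adjusted p = 0.00649), and TIMM17B, of the inner membrane channel, by -0.94. Of 76 mitochondrial ribosomal proteins, 12 fell and 2 rose, with a median of -0.26, MRPL24 at -1.77 and MRPL12 at -1.08 among them, while MRPS6 rose by 1.54. With TAF3 siRNA under doxorubicin 4 of the 76 rose and 1 fell, MRPL24 by 1.25 upward (adjusted p = 0.0157). These calls were 6.58% of the 76, fewer than the 13.8% of all features called there. Of the 23 import and cristae genes, TIMM44 alone was called in that comparison, at 0.60, or 4.35% of the list.

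Of 16 citric acid cycle genes, CS and DLAT fell with doxorubicin under control siRNA (-1.19 and -1.15) and IDH2 rose by 1.14. This was 18.75% of the list, against 17.1% of all features. With TAF3 siRNA under doxorubicin IDH2, IDH3G and OGDH were lower (-1.34, -1.35 and -0.71) and SUCLG2 was higher by 1.20. Here 25% of the list was called, against 13.8% of all features. Of 16 regulators of mitochondrial biogenesis and DNA expression, TFB1M, POLRMT and POLG2 fell with doxorubicin under control siRNA (-0.72, -0.61 and -0.78) and ESRRA, a nuclear receptor acting on respiratory genes, rose by 0.69. They were 25% of these regulators, against 17.1% of all features. With TAF3 siRNA under doxorubicin TWNK and PPRC1 were higher, by 0.96 each, and POLG was lower (-0.85). That was 18.75% of the regulators, against 13.8% of all features. GABPB1, a partner of an ETS factor of respiratory genes, fell by 1.06 with doxorubicin under TAF3 siRNA (limma adjusted p = 0.0190). In that comparison 6.25% of the regulators were called, against 4.65% of all features.

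None of 10 further complex I factors was called in any comparison, where the largest share of all features called was 17.1%, with doxorubicin under control siRNA. Of 25 complex IV factors, 0 were called with doxorubicin under control siRNA, while COX10 was higher (0.90) and COX11 lower (-0.61) with TAF3 siRNA under doxorubicin. These shares, 0% and 8%, stood against 17.1% and 13.8% of all features. Of 12 factors of complexes II, III and V, UQCC2 fell (-1.15) and UQCC1 rose (0.87) with doxorubicin under control siRNA, or 16.7% called against 17.1% of all features. SDHAF4 was higher (0.77) with TAF3 siRNA under doxorubicin, or 8.33% called against 13.8% of all features. Of 12 carriers and shuttles, SLC25A4, the ADP/ATP carrier, rose by 0.77 and VDAC1 fell by 0.53 with doxorubicin under control siRNA. UCP2 and GPD2 were lower (-1.26 and -0.68) with TAF3 siRNA under doxorubicin. In both comparisons 16.7% of the carriers and shuttles were called, against 17.1% and 13.8% of all features. MRPL23 and TIMM10 fell with doxorubicin under TAF3 siRNA (-0.80 and -0.77). Each was the only call of its list there, 1.32% and 4.35%, against 4.65% of all features. In untreated cells TAF3 siRNA called 0 genes of any of these lists.

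**Figure D5:**
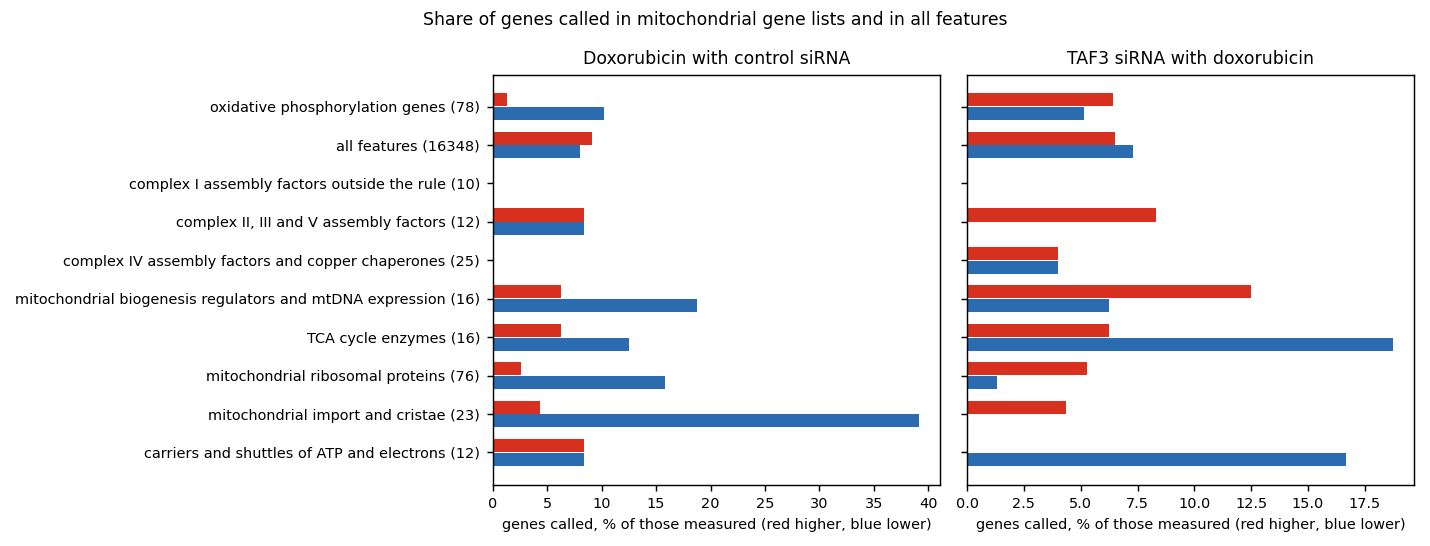
Share of measured genes called higher (red) and lower (blue) in the oxidative phosphorylation genes, in all features and in 8 other mitochondrial lists, with the number measured in brackets. With doxorubicin under control siRNA the blue bar is longest for import and cristae, where 9 of 23 genes fell.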

How the data were processed

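Total RNA of 8 HCT116 samples was labelled by oligo(dT)-primed amplification and hybridised to Illumina HumanHT-12 v3 arrays, per the labels' protocols. The intensity values used are the linear signals the authors deposited for each labelled sample, made with BeadStudio per the submitters' processing notes (the version is not stated there). The 8 columns share 1 median, so some scaling between arrays had been done. The detection values, an other quantity of 1 minus p in the authors' deposited non-normalized table, carry no sample names and served only to count, per probe, the arrays that detected it. The 8 signal columns of that table were not used.

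Signals were corrected with normexp (offset 50), quantile normalised and log2 transformed. A probe had to be detected on 2 or more arrays at p under 0.05, which kept 20628 of 48803. Of all probes, 28098 have 1 gene symbol in the platform annotation, 13 several, and 20692 are not listed. Symbols were updated through RefSeq, which matched 28059 probes. The brightest kept probe stands for a gene. One limma fit (3.58.1, R 4.3.3) with 4 group means gave the 5 comparisons (residual degrees of freedom 4, prior 4.98). P-values were adjusted after Benjamini and Hochberg over 16348 features. Values of dimmer probes come from a second fit with each of the 20628 kept probes its own feature, adjusted over those probes. The first fit was tested on simulated data.

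An array's background threshold is midway between its brightest probe that no array detected and its dimmest probe that all 8 detected. A bound sets the brighter group's mean against, per dim array, the higher of the probe's own value and the lowest value above the threshold. Promoter sequences are RefSeq's (GRCh38.p14). All called members are named in each comparison, with the smallest p-values added up to 6 where fewer were called, and isoform sets and members whose probes disagree. Members, lists and tests were chosen with earlier results of these data known. The number of arrays limits the precision.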

Additional observations from a re-analysis of the deposited data

Results flagged for a closer look

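In 5 members both arrays moved one way with doxorubicin under control siRNA and the opposite way under TAF3 siRNA, against 5.52% of all features (6.41% of members). The limma test of the difference called none of them. UQCR11 changed by -0.44 and 0.40, a difference of 0.84 (adjusted p = 0.187), NDUFV2 by -0.53 and 0.11 (0.64, adjusted p = 0.190), and COX7C by -0.37 and 0.33 (0.70, adjusted p = 0.253). NDUFA3 changed by -0.33 and 0.11 (0.44, adjusted p = 0.419), and COX8A by 0.36 and -0.23 (-0.59, adjusted p = 0.269).

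In 3 members (3.85%, against 6.80% of all features) TAF3 siRNA moved both arrays one way in untreated cells and the opposite way with doxorubicin. NDUFV2 changed by -0.11 and 0.53, COX7C by -0.28 and 0.41, and ATP5PB, the peripheral stalk subunit b, by -0.13 and 0.28. Their differences are the same quantity as above, 0.64 and 0.70 for NDUFV2 and COX7C, and 0.41 for ATP5PB (limma adjusted p = 0.452).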

How the results depend on the processing

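With the deposited signal taken to log2 as it stood, the members called numbered 5 for doxorubicin under control siRNA and 3 for TAF3 siRNA under doxorubicin (ATP5MC2, NDUFA13 and COX8A). With median centring the latter count was also 3. Fitting only the 2 groups compared gave 15 for doxorubicin under control siRNA. Leaving out 1 array at a time, the counts ran from 0 to 12 for doxorubicin under control siRNA, from 0 to 13 for TAF3 siRNA under doxorubicin (4 without either untreated control array), from 0 to 6 for doxorubicin under TAF3 siRNA (6 without TAF3 siRNA untreated replicate 1, 1 without TAF3 siRNA doxorubicin replicate 4) and from 0 to 1 for the difference between siRNAs, where NDUFV1 was called without TAF3 siRNA untreated replicate 1. TAF3 siRNA in untreated cells had 0 calls throughout. These counts stand without the share of all features called in each setting. A change particular to these genes therefore cannot be read from them. On the deposited scale the median of all features moved to -0.10 for the difference between siRNAs, from 0.02. The member medians there, under log2 of the deposited signal and then median centring, were -0.081 and -0.075 for that difference. They were -0.16 and -0.16 for doxorubicin under TAF3 siRNA and -0.11 and -0.12 for TAF3 siRNA under doxorubicin. For TAF3 siRNA untreated they were -0.0057 and -0.015, and for doxorubicin under control siRNA -0.065 and -0.073. Under either scaling the member median minus that of all features was -0.10 for doxorubicin under control siRNA (main fit -0.04). It was -0.12 for doxorubicin under TAF3 siRNA (main fit -0.02) and -0.09 for TAF3 siRNA under doxorubicin (-0.06). For TAF3 siRNA untreated it was -0.07 (-0.09), and for the difference 0.02 (0.04). Leaving out 1 array at a time, the member medians ran from 0.0062 to 0.12 for the difference. They ran from -0.032 to 0.049 for doxorubicin under TAF3 siRNA and from -0.15 to -0.030 under control siRNA. For TAF3 siRNA they ran from -0.073 to 0.039 under doxorubicin and from -0.13 to -0.022 untreated. Causes were not tested. The siRNA groups share replicate numbers, but arrays with the same number deviated together with a correlation of -0.03 untreated and 0.21 with doxorubicin, so the numbers were not taken as pairs. With the replicate block the calls were 10 for TAF3 siRNA under doxorubicin, 0 untreated and 0 for the difference. These counts too stand without the share of all features called. NDUFV1, UQCRC1 and NDUFS7 were then called (adjusted p = 0.0201, 0.0492 and 0.0374), and NDUFV2 and NDUFB7 were not (adjusted p = 0.0606 and 0.0570). On its brightest probe no called gene changed direction under the alternatives run. With every probe its own feature, the dimmer ATP5MC1 probe stood at 0.26 and -0.13, opposite to the called one.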
